A study of Drosophila melanogaster with 3 samples.

Results

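Chromatin bound by Cycle was mapped in whole white prepupae, and 957 of the 7227 peaks of the thresholded list (13.2%, 95% interval 12.5 to 14.0%) lay at single promoters. A peak was counted here when its summit lay within 250 bp of a protein-coding transcript start and no gene on the opposite strand started within 1 kb of the summit. These 957 peaks belong to 905 genes and 947 distinct starts. Another 1287 peaks lay within 250 bp of a start but also had an opposite-strand start within 1 kb, of which 1226 had the divergent layout, and they are called both-strand promoter peaks below. The remaining 4983 peaks lay over 250 bp from any protein-coding start.

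The experiment was a ChIP-seq (chromatin immunoprecipitation and sequencing) of a transgenic Drosophila melanogaster line that stably expresses Cycle with GFP fused to its C terminus. The 3 samples are biological replicates of 1 group, each of whole animals of both sexes pooled, with no untreated or untagged group among them. The precipitation used an antibody against GFP according to the sample descriptions, although the antibody field names cyc, and chromatin was sheared by sonication. The labels give neither an age, nor a time of day, nor the state of the endogenous cyc gene.

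Cycle is a bHLH-PAS transcription factor that pairs with Clock and activates circadian genes such as per, tim and vri through the E-box CACGTG. RNA polymerase starts transcription at a core promoter, which may hold a TATA box upstream of the start, an Initiator at the start, or elements of broadly active genes such as the DRE, bound by DREF and BEAF-32, and the M1BP site. In the compact fly genome many genes share an upstream region with a neighbour transcribed the other way, whereas a single promoter serves 1 direction of transcription.

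The following promoters were chosen as strong members with each of 6 sequence motifs, since the motif content of the peaks is a main result below. Each is a RefSeq stretch of dm6 around the summit, 5′ to 3′ along transcription, with the motif in capitals on whichever strand it was found.
fok, E-box of Clock and Cycle, chr2L:20085153-20085353, minus strand: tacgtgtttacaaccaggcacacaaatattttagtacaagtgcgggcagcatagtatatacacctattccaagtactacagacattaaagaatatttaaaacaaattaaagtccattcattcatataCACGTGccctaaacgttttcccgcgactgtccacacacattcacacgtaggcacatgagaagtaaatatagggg
CG11151, DRE, chrX:13739437-13739637, plus strand: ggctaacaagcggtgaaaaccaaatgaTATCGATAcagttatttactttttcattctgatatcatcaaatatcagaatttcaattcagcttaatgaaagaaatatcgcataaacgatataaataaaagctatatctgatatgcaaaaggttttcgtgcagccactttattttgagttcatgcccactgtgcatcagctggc
Rnp4F, M1BP site, chrX:5322667-5322825, minus strand: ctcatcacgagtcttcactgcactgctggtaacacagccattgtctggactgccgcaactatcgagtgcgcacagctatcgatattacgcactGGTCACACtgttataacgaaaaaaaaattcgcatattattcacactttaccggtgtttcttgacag
nebu, GAGA site, chr3L:12843163-12843363, minus strand: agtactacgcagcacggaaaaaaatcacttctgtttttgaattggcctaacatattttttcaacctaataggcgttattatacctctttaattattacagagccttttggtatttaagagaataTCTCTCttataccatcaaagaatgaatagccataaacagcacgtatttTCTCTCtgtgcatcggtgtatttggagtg
CG13921, TATA letters, chr3L:1746661-1746861, plus strand: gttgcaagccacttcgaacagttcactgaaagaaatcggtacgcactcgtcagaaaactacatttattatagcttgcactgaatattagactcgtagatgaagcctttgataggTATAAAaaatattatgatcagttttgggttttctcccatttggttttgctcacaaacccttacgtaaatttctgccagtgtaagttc
amon, GTGCAC palindrome, chr3R:26714270-26714470, minus strand: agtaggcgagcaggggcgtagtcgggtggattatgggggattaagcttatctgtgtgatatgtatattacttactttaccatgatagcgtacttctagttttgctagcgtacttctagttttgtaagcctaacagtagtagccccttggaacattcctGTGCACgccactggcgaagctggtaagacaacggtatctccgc

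The E-box in the fok promoter began 156 bp before the transcript start and its centre lay 30 bp from the summit. In the CG11151 promoter the DRE began 280 bp before the start, 69 bp upstream of the summit by its centre. The M1BP site of Rnp4F, an RNA-binding protein gene, began 36 bp before the start and its centre lay 3 bp from the summit. The nebu promoter held the GAGA site at 2 positions, both read on the other strand. The TATA letters of CG13921 began 132 bp before the start, outside the place of a working TATA box, which lies closer to the start. The GTGCAC palindrome of amon, the prohormone convertase gene, began 153 bp before the start.

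Replicate 1 stood apart from the other replicates before any promoter was considered. Its list held 11.9% of its peaks on X, against 22.1% in replicate 2 and 21.8% in replicate 3. The 7227 strongest peaks of each replicate overlapped 71.3%, 89.7% and 90.2% of the 957 members in replicates 1, 2 and 3, a mean of 83.7% ± 10.8 (SD, n = 3). Of all thresholded peaks they overlapped 83.0%, 87.1% and 88.4%, and of the both-strand promoter peaks 70.6%, 91.1% and 92.1%. All 3 replicates supported 595 members, exactly 2 supported 259, 1 supported 100 and none supported 3. Replicate 1 alone lacked 190 members, 52 of them on X. Among the 186 members on X the support was 62.9%, 94.6% and 90.3% in replicates 1, 2 and 3, and among autosomal members 73.3%, 88.5% and 90.1%. The thresholded list was derived from these replicates, so part of this overlap is built in. Read depth is unknown, because peak lists carry no counts. In whole animals a weak signal in many cells and a strong signal in few cells cannot be told apart.

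The first question was on which side of the start the summits lie, since the 250 bp limit uses the distance and not the side. The 1 kb limit on opposite-strand starts is measured from the summit, so it need not weigh equally on each side. Of the 957 summits, 806 lay upstream of the start (84.2%, 95% interval 81.8 to 86.5%, exact binomial, counting error only), 147 downstream and 4 on the start itself. The median position was -104 bp, with quartiles at -172 and -38 bp, where negative values are upstream. The most filled 50-bp interval was -100 to -51 bp with 184 summits, followed by -150 to -101 bp with 182, and only 10 lay between 200 and 250 bp downstream. When the 7227 strongest peaks of each replicate were put through the same rule, 760, 1147 and 1020 single-promoter peaks were found in replicates 1, 2 and 3. Upstream lay 85.0%, 76.1% and 85.6% of them, a mean of 82.2% ± 5.31 (SD, n = 3), and the medians were -114, -70 and -104 bp. Replicate 2 had the lowest share and the summits closest to the start, and all 3 shares were above 50%. The excess over 50% was 32.2 ± 5.31 percentage points (SD, n = 3; two-sided exact sign-flip permutation test over replicates, p = 0.25). With 3 replicates 0.25 is the smallest p that this test can give, so none of the tests below can pass 0.05. The replicates share 1 control alignment and the same tagged line, so their spread does not cover variation between lines. The excess was 16.7 points when every peak of each replicate list was used. With an opposite-strand window of 500 bp it was 32.4 points, and with 2 kb 32.9 points.

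**Figure D1:**
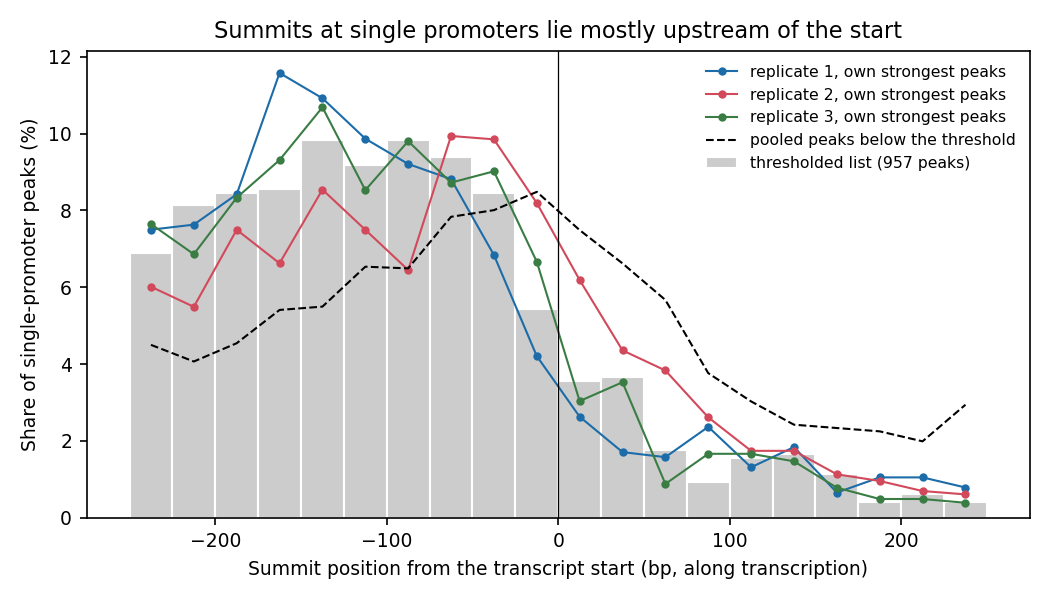
Position of the summit from the transcript start in bp, negative upstream, as the share in percent of single-promoter peaks in intervals of 25 bp. Bars show the 957 members, coloured lines the strongest peaks of each replicate, and the dashed line the 2310 weaker pooled peaks. Bars and replicate lines lie mostly left of the start, and the dashed line is centred closer to it, with a median of -36 bp.

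Where the whole list of a replicate had an overlapping peak, the summit of that peak mostly lay close to that of the member. Such a peak was present at 806, 944 and 946 of the 957 members in replicates 1, 2 and 3. The median absolute distance between the 2 summits was 18, 15 and 11 bp, and the 90th percentile 66.5, 59 and 58.5 bp. Part of this closeness is built in, since the list derives from these replicates and the overlapping peak nearest by summit was taken. At genes with 1 annotated start, where the side cannot depend on the choice among starts, 394 of 435 members were upstream (90.6%), with a median of -99 bp. At genes with several starts the share was 78.9%. Of the 522 members at such genes, 239 (45.8%) lay at the most upstream start and 283 at a later one.

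Position and strength moved together. With the members split by signal into 4 sets of 239 or 240, the median position was -146.5 bp in the strongest set, then -115, -82 and -73 bp, and the shares upstream were 88.8%, 87.9%, 82.0% and 78.2%. In the replicates' own lists the strongest of 4 such sets lay further upstream than the weakest by 52, 103.5 and 97 bp, a mean difference of -84.2 ± 28.0 bp (SD, n = 3; exact sign-flip permutation test, p = 0.25). The median GC content of the 201 bp around the summit was 35.3% in the strongest set and 38.3% in the weakest, and its part in the result was not tested. Over the whole pooled list of 29484 peaks, cut into 12 sets by signal, the upstream share of single-promoter summits was 88.8% in the first set and 45.0% in the last. Single promoters made up 13.5% of the strongest set, 16.1% of the fourth and 5.70% of the weakest. Both-strand promoters went from 20.5% to 1.91% over the same sets.

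**Figure D2:**
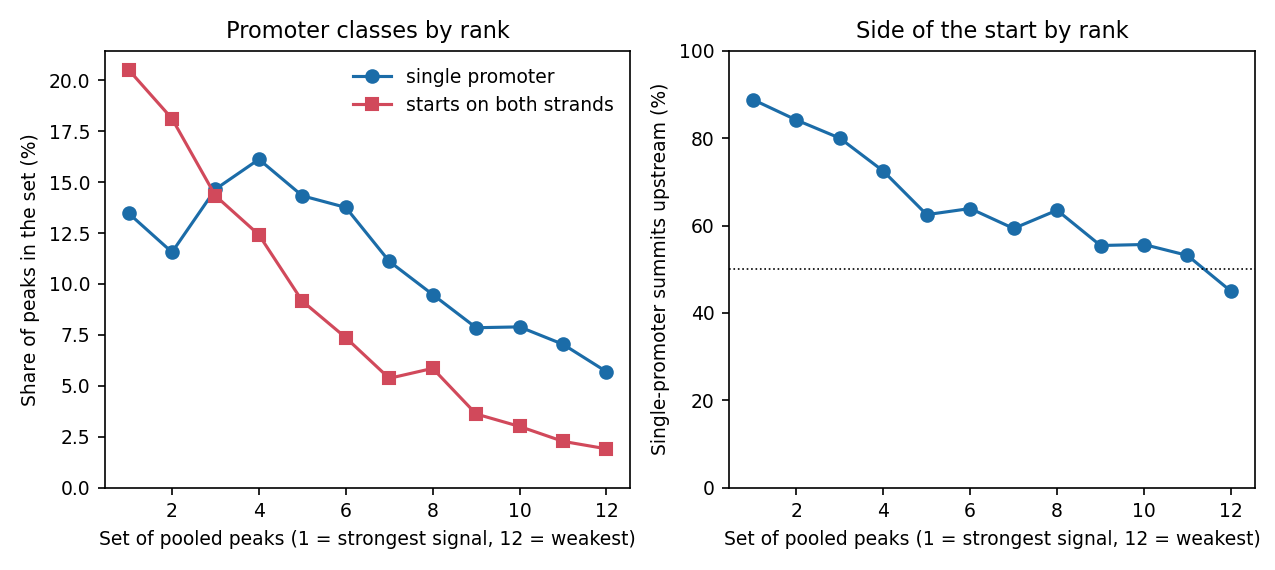
All 29484 pooled peaks in 12 sets of 2457 from the strongest signal (1) to the weakest (12). Left, the share of peaks in percent at single promoters (circles) and at both-strand promoters (squares); right, the share of single-promoter summits that lie upstream, with 50% dotted. The left circles are highest in set 4 at 16.1%, the squares go from 20.5% to 1.91%, and the right curve goes from 88.8% to 45.0%.

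Summits downstream of a start lie inside its transcript by definition. Of the 147 downstream members, 121 lay in UTR exons, 22 in introns and 4 in coding exons, and of the 806 upstream ones 518 lay between genes, 212 in introns, 68 in UTR exons and 2 in coding exons. The downstream members' median signal was 173 against 219 for the upstream members, and their median GC content was 41.8% against 36.1%. The strongest was GstE13, a glutathione S-transferase gene on 2R, with the summit 54 bp downstream at 9122179 and a signal of 2587. It was followed by pnut, a septin gene, 126 bp downstream at 1045, and by CG2811, 22 bp downstream at 955. The others among the 8 strongest downstream members were Ufsp1, CG14434, CG9399, CAH3, a carbonic anhydrase gene, and CG12316, all in UTR exons and with signals from 850 to 929. Over all members, 518 summits lay between genes (54.1%), 234 in introns (24.5%), 193 in UTR exons (20.2%), 6 in coding exons and 6 in non-coding exons.

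The signal is the authors' value for each peak against a control, on a scale that is not stated. Members ranged from 110.3 to 5705, and their median was 208, against 232 in the both-strand promoter peaks and 207 in the peaks away from starts. The 500 strongest peaks of the list held 89 members and the 500 weakest 78, where members were 13.2% of all peaks. In the replicates' own lists the median of single-promoter peaks was 66.0, 62.3 and 81.6, and that of both-strand promoter peaks 77.7, 71.6 and 93.7. Single promoters were lower in all 3, by a log2 ratio of -0.23, -0.20 and -0.20, a mean of -0.21 ± 0.02 (SD, n = 3; exact sign-flip permutation test, p = 0.25). The ratio turned to 0.041 when only the stronger 50% of these peaks was used and was -0.72 when all peaks of each list were used.

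CG14100 on 3L held the strongest member and the strongest peak of all, 97 bp upstream of its start at 19590621. Its signals in replicates 1, 2 and 3 were 2194, 1708 and 1828. Divided by the median of the thresholded peaks in the same replicate, which gives the relative signal used from here on, they were 34.3, 25.2 and 21.1, a mean of 26.9 ± 6.73 (SD, n = 3). CG1888 on 2R, 227 bp upstream at 9547185, followed with relative signals of 20.9, 18.3 and 12.9 (mean 17.4 ± 4.07, SD, n = 3), and CG13921 on 3L, 146 bp upstream at 1746761, with 16.4, 14.9 and 10.7 (14.0 ± 2.94). In all 3 genes replicate 1 was the highest and replicate 3 the lowest.

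Hsp27, a small heat shock protein gene on 3L, was the next, 141 bp upstream at 9383922, and its relative signals of 13.9, 13.4 and 13.8 hardly differed (13.7 ± 0.287, SD, n = 3). Sox14, which encodes an HMG-box transcription factor induced by ecdysone, had its summit 243 bp upstream on 2R at 23978558, with relative signals of 18.0, 12.8 and 10.1 (13.6 ± 4.01, SD, n = 3). CG18549 stood at 12.1 ± 0.723, GstE13 at 12.2 ± 2.57, and Trp1, an endoplasmic reticulum translocation gene, at 12.2 ± 3.84 (each SD, n = 3). Below them, CG31145 stood at 11.6 ± 2.21, gish, a casein kinase 1 gene, at 10.1 ± 0.521, and nebu at 9.50 ± 1.32. The remaining genes of the 15 were Hpf1, which encodes a histone PARylation factor, Fkbp14, a peptidyl-prolyl isomerase gene, Hexo2, a hexosaminidase gene, and Ptpmeg2, a tyrosine phosphatase gene, at means from 8.14 to 9.18. GstE13 was the only one of the 15 whose summit lay downstream. Apart from CG14100, the ranges of neighbours in this order overlap.

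**Figure D3:**
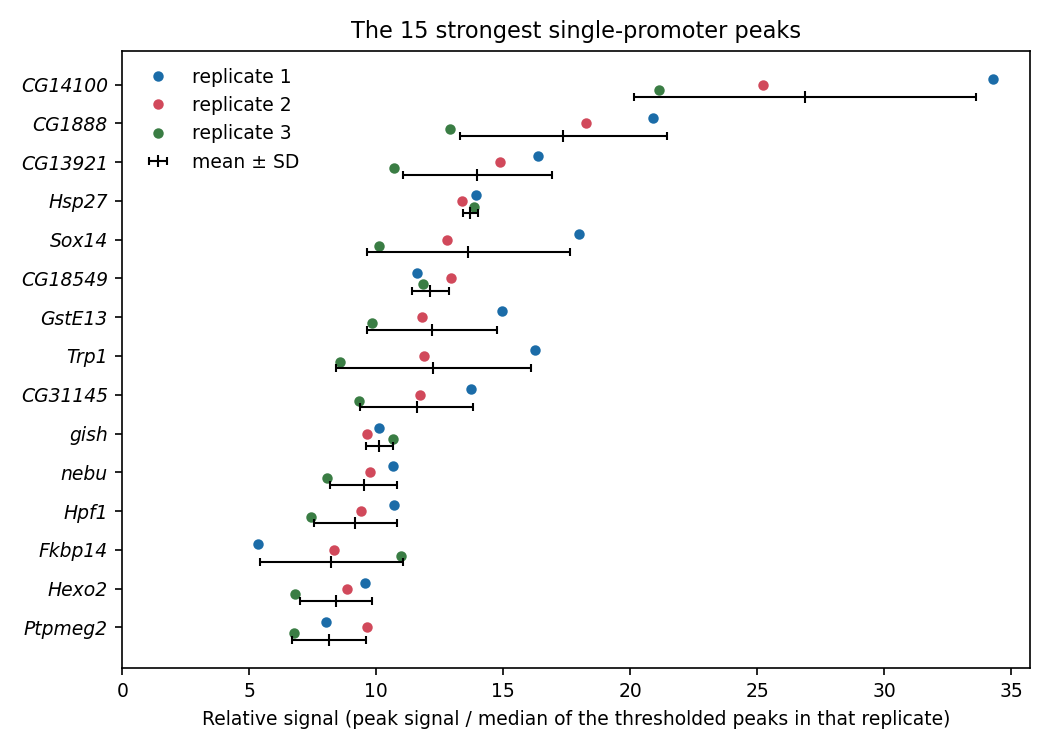
Relative signal (peak signal divided by the median of the thresholded peaks in that replicate, no unit) of the 15 strongest members, with coloured points for the replicates and a black bar for the mean ± SD. The 3 points of CG14100 lie between 21.1 and 34.3, above every other point, and those of Hsp27 almost coincide.

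Among the 785 members with a peak in all 3 replicates the median coefficient of variation of the relative signal was 24.8%. The most even member was at CG32982, with relative signals of 1.99, 2.01 and 2.00, followed by ttv, a heparan sulfate synthesis gene, with 1.43, 1.47 and 1.45, and CG15237, with 1.57, 1.59 and 1.62. At 45 members (4.70%) the peak of some replicate also overlapped a neighbouring thresholded peak and stood for both, so its signal may belong to the neighbour. These include NijA, isoQC and brwl, the 3 with the highest variation, whose values are therefore not read as their own. Among the named list members, pho, Rab11 and dap also had such a shared peak in 1 replicate. Without the sharing members the median was 24.6% over 741 members, a restriction chosen after seeing the data. The least even of these were CG10139, with 1.28, 0.376 and 0.246, Ptp99A, a receptor tyrosine phosphatase gene, with 1.13, 0.221 and 0.329, and Cipc, with 0.239, 1.00 and 1.89. Replicate 1 was the highest at CG10139 and Ptp99A and the lowest at Cipc.

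The next comparison set the promoters with a summit against those without. A start was called single here when no gene on the opposite strand started within 1 kb of the start itself, and both-strand otherwise. This limit was measured from the start and not from the summit, so these starts need not be those of the members. By this measure 2 of the 905 member genes had no single start. Of the 12235 single starts, 1086 had a thresholded summit within 250 bp (8.88%), against 2150 of the 7018 both-strand starts (30.6%). In the replicates' own lists the shares were 7.08%, 10.6% and 9.43% of single starts and 22.1%, 32.8% and 32.1% of both-strand starts. The single starts were lower in all 3 replicates, by a mean of 20.0 ± 4.29 percentage points (SD, n = 3; exact sign-flip permutation test, p = 0.25). A summit between divergent genes can count for both of their starts. With each summit counted once, for its nearest start, 966 single starts (7.90%) and 1264 both-strand starts (18.0%) were reached. The difference was -8.99 points with a window of 100 bp.

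The member genes were longer and had more starts than other genes with a single start. Their median length was 4869 bp against 2169 bp, and 47.4% of them had 1 annotated start against 72.9%. A gene with more starts has more chances to hold a member, and the part of this in the difference was not tested. Several members shared a gene: 40 genes held 2, CG2017, jigr1, Moe, the moesin gene, and RapGAP1 held 3 each, and Ptpmeg2 held 5. Other thresholded summits, 776 in all, lay within 264 of the 905 member genes (29.2%). The same share in other genes, which are shorter, is not given here, so this count is not read as a trait of member genes. The rule leaves some neighbours in place: 86 members had a start of another gene on the same strand within 1 kb, 109 had their start inside another gene, and 209 had an opposite-strand start over 1 kb but within 2 kb away. The nearest opposite-strand start was at a median of 3843 bp. Just inside the distance limit, at 249 bp, lay MFS18, egr, CG7737, CG7330 and pdgy with signals of 479, 121, 456, 509 and 1160, and just outside, at 251 bp, MFS15 and Fancm with 167 and 293. On the other limit, cnn was kept with an opposite start at 1004 bp and a signal of 234, and Saysd1 was left out at 999 bp with 191.

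For each motif both strands were read up to 100 bp from the summit, a window of 201 bp, and for comparison all promoters from 250 bp before to 50 bp after the start. CACGTG, the E-box of Clock and Cycle, lay near 19 of the 957 summits (1.99%, 1.20 to 3.08%), against 2.64% of both-strand promoter peaks and 1.63% of all thresholded peaks. In the promoter window 3.41% of the single starts with a summit held it, and 3.75% of the single starts without. The 5 strongest members with the E-box were at fok (relative signal 5.14 ± 0.807), E23, an ecdysone-induced ABC transporter gene (4.37 ± 0.922), CG4408 (3.21 ± 0.982), sdk, a cell adhesion gene (3.09 ± 0.809), and RpL24, a ribosomal protein gene (2.14 ± 0.796; all SD, n = 3). Their values in replicates 1, 2 and 3 were 5.01, 6.00 and 4.40 for fok and 3.61, 4.10 and 5.40 for E23.

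The DRE, TATCGATA, lay near 63 members (6.58%), against 11.5% of both-strand promoter peaks and 3.32% of all peaks, and it was held by 9.58% of single promoters with a summit and 4.03% of those without. The M1BP site, GGTCACAC, lay near 45 members (4.70%), against 5.67% and 1.96%, and by promoter it was held by 8.38% and 3.41%. The GAGA site, GAGAGA, showed another pattern: it lay near 99 members (10.3%), against 3.65% of both-strand promoter peaks and 9.66% of all peaks, and was held by 19.4% and 17.2% of single promoters with and without a summit. DRE matches were denser within 50 bp of the members' summits than over 150 bp away, at 0.341 against 0.0909 per kb, and M1BP matches at 0.228 against 0.108. GAGA matches went the other way, at 0.672 against 1.25 per kb. The run AAAAAA, a composition control, was also denser near the summits, at 6.61 against 4.66 per kb, while CACGTG was not, at 0.103 against 0.133. By promoter, AAAAAA was held by 55.4% of single promoters with a summit and 46.7% of those without. The part of composition in the DRE and M1BP differences was not tested. For the DRE the most filled interval lay 80 to 99 bp from the summit on a single side, with 13 matches, while 0 to 19 bp held 11. For the M1BP site it lay 60 to 79 and 100 to 119 bp away on that side, with 10 each, while 0 to 19 bp held 6. These counts are small and their differences were not tested. The median signal was 208 over all members. It was highest, at 362, in the 19 members with CACGTG, followed by 277 in the 50 with GTGCAC, and lowest, at 166, in the 63 with the DRE. These medians over few peaks were not tested.

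In the replicates' own lists the share with the GAGA site was 11.1%, 12.6% and 9.90% at single promoters and 4.02%, 4.77% and 4.10% at both-strand promoters, a difference of 6.88 ± 1.00 percentage points (SD, n = 3). The DRE gave 5.92%, 7.06% and 7.55% against 9.20%, 12.4% and 10.7%, a difference of -3.94 ± 1.23 points, and the TATA letters TATAAA -9.24 ± 1.64 points. The Initiator letters TCAGT (3.89 ± 0.356), GGCGCC (2.68 ± 0.507) and CATATG (2.40 ± 0.245) were more frequent at single promoters in all 3 replicates, and CAGCTG was less frequent (-2.11 ± 1.63; all in points, SD, n = 3), though its difference turned to 0.00594 with summits within 100 bp of the start. For these 7 of the 12 motifs the adjusted p was 0.429 (exact sign-flip permutation test, Benjamini-Hochberg over 12 motifs). The differences of CACGTG (-0.193 ± 0.335 points) and the M1BP site (-0.741 ± 0.848 points) did not have 1 sign in all replicates (adjusted exact p = 0.545 for each). Nor did those of GTGCAC, of the Zelda site CAGGTAG, which lay near 6 members, and of the composition control AAAAAA. The classes of promoter differ in these letters with or without a summit. In the promoter window the GAGA site was held by 17.4% of all single promoters and 9.55% of all both-strand ones, the DRE by 4.52% and 14.0%, TATAAA by 40.2% and 46.0%, TCAGT by 55.0% and 47.2%, and CAGCTG by 15.9% and 21.4%. For these 5 motifs the difference over all promoters had the same sign as that over the peaks, so the peaks' differences cannot be called particular to Cycle peaks. The shares differed in the same direction as over the peaks, but by less, for GGCGCC (4.77% and 4.33%) and CATATG (8.12% and 7.78%). They were 3.85% and 11.7% for the M1BP site, 3.72% and 4.60% for CACGTG, 5.67% and 5.71% for GTGCAC, 1.95% and 1.23% for CAGGTAG, and 47.4% and 53.1% for AAAAAA. No motif contains another, though matches can overlap in part, and a match is a description of letters, not a site in use.

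**Figure D4:**
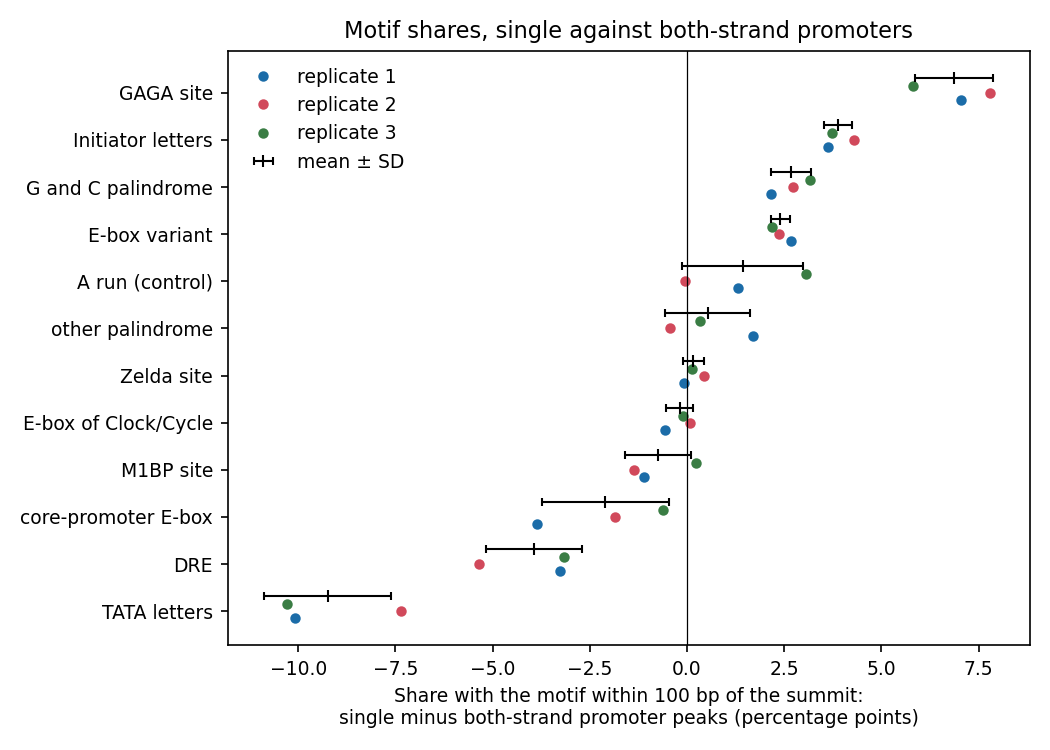
Difference in the share of peaks with each motif within 100 bp of the summit, single minus both-strand promoter peaks in percentage points, with a coloured point per replicate and a black bar for the mean ± SD. The core-promoter E-box is CAGCTG, the E-box variant CATATG, and the G and C palindrome and the other palindrome are GGCGCC and GTGCAC. The points of the GAGA site lie furthest right and those of the TATA letters furthest left.

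Core elements were then counted only at their usual position relative to the start. TATAAA beginning 40 to 20 bp before the start, on the sense strand, was found at 2.67% (1.80 to 3.81%) of the 1086 single starts with a summit and at 8.32% (7.82 to 8.85%) of the 11149 without. The Initiator within 5 bp of the start was found at 11.1% and 13.7% of them, against 3.58% of both-strand starts with a summit and 6.58% of all both-strand starts. For the placed TATAAA the both-strand shares were 1.81% and 5.22%, so its lower share at starts with a summit was not particular to single promoters. These counts over starts have no replicate values. The 28 members with a placed TATA box include Hsp27, Ufsp1, cact, the IκB gene of the fly, MFS18, Vha16-1, a vacuolar ATPase gene, neur, a ubiquitin ligase gene of Notch signalling, FASN1, a fatty acid synthase gene, ImpL2, an insulin-binding protein gene, and Hsp23. The TCT element, a pyrimidine stretch known from ribosomal protein genes and searched as CTTT between pyrimidines within 5 bp of the start on the sense strand, was found at 2.85% of single starts with a summit and at 1.42% of those without. It was found at 2.33% of both-strand starts with a summit and at 1.55% of all both-strand starts.

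The gene lists are described by how many of their genes with a single start had a member, beside 9.99% of all 9037 such genes (903 genes). Cytosolic ribosomal protein genes stood highest, with 20 of 35 (57.1%, 39.4 to 73.7%). Their members had a median signal of 313 and a median position of -26 bp, against 208 and -104 bp for all members. The strongest was RpL23A on 3L, 87 bp upstream, with relative signals of 3.24, 3.97 and 3.63 (3.61 ± 0.365, SD, n = 3). RpS10b on X gave 1.27, 3.34 and 1.78, and RpL24 on 2L 1.38, 2.97 and 2.08, so replicate 1 was the lowest for all 3 genes. Of the 21 ribosomal member peaks, 7 had the TCT element at the start, described above. Separately, 51 of all 86 ribosomal protein genes had a both-strand promoter peak. The 9.99% is not the base for this count, and the matching share over all genes is not given here. Counted by start and not by gene, 30.6% of all both-strand starts had a thresholded summit within 250 bp.

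Other housekeeping lists lay nearer to the 9.99%. The counts were 4 of 24 translation initiation factor genes, 5 of 44 oxidative phosphorylation genes, 2 of 23 proteasome genes, 2 of 19 vacuolar ATPase genes, 3 of 16 Rab GTPase genes, 2 of 11 aminoacyl-tRNA synthetase genes, 2 of 9 Mediator genes and 1 of 15 mitochondrial ribosomal protein genes. The median signals of their members ran from 127 to 283 by list, against 208 for all members. The autophagy list had Atg8a, 1 of 6, and the cell cycle list had polo, a mitotic kinase gene, Orc1, of the origin recognition complex, and dap, a cyclin-dependent kinase inhibitor gene, 3 of 16.

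A further 4 lists had 1 member gene each. Of 188 chemosensory genes only Obp99b, an odorant-binding protein gene, had one, of 126 cuticle and Osiris genes only Osi24, of 59 developmental transcription factor genes only da, the common bHLH partner gene, and of 17 muscle genes only Tm1, a tropomyosin gene. None of 70 cytochrome P450 genes did, where 3 counts of 70 would be 4.29% and the exact 95% interval ends at 5.13%.

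The core clock list had cry and vri, 2 of 7. The photoreceptor gene cry had its summit 230 bp upstream on 3R at 19211924, with relative signals of 1.64, 1.93 and 1.96 (1.84 ± 0.178, SD, n = 3). The bZIP gene vri had its summit 223 bp upstream on 2L at 5299424, with 0.812, 0.778 and 1.53 (1.04 ± 0.424, SD, n = 3), so replicate 3 lay apart from the others. Neither had CACGTG within 100 bp. The starts of per, tim, Clk, cyc and Pdp1 had no member, and cwo has no single start, so it could have none under the rule. The pooled list below the threshold had summits 169 bp from a start of per, 177 bp from one of Pdp1 and 70 bp from that of cwo. Such summits are common: the whole pooled list had one within 250 bp of 27.8% of all single starts and 52.3% of all both-strand starts. These 3 are therefore not read as a trait of clock genes. Among the clock kinase, phosphatase and degradation factor genes, 3 of 10 had a member: sgg, the GSK3 gene, at 5.47, 5.71 and 4.67 (5.28 ± 0.548, SD, n = 3), wdb, a regulatory subunit gene of protein phosphatase 2A, at 1.11 ± 0.338, and tws, another such gene, at 0.924 ± 0.464. The bHLH-PAS and Myc list had only sima, the hypoxia factor gene, 1 of 11.

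The ecdysone list had 4 of 16, a group that acts at this stage of metamorphosis. E23 was the strongest. Eip75B, a nuclear receptor gene, had its summit 27 bp downstream, with relative signals of 3.31, 4.01 and 2.86 (3.39 ± 0.580, SD, n = 3). Eip74EF, an ETS factor gene, gave 1.40, 1.73 and 1.65 (1.59 ± 0.177, SD, n = 3) at 229 bp upstream, and crol, a zinc finger gene, 0.200, 0.517 and 0.888 (0.535 ± 0.344, SD, n = 3). The chromatin list had 5 of 14, the genes Trl, ph-d, pho, esc and ph-p. Trl, which encodes GAGA factor, stood at 4.50, 3.38 and 2.55 (3.48 ± 0.979, SD, n = 3), with its summit 114 bp downstream, and 2 of the 5 had theirs upstream. The heat shock list had Hsp27, Hsp60A and Hsp23, 3 of 19, the last at 0.536 ± 0.0234. Many of these lists are short, their intervals are wide, and the genes of a list are not independent of each other.

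**Figure D5:**
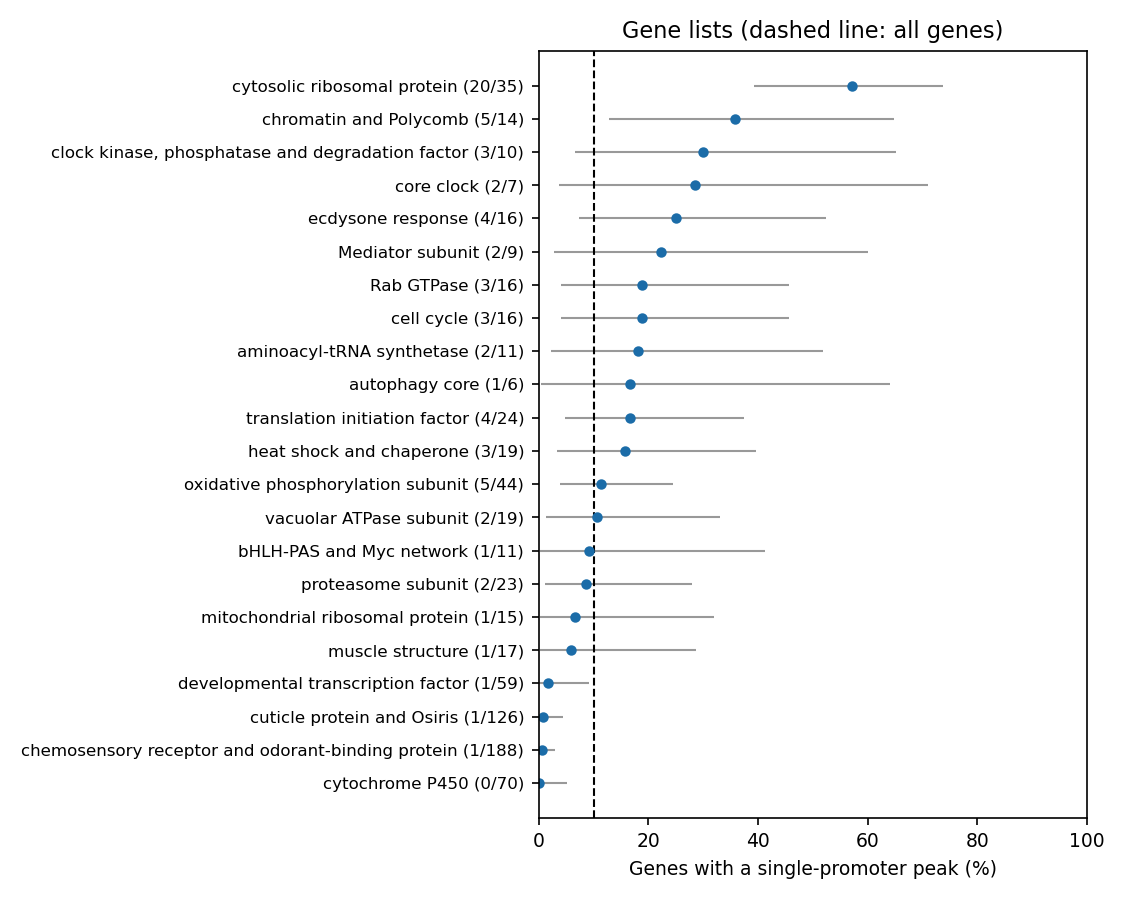
Share of genes with a member, in percent of the list's genes that have a single start, for the 22 lists with 95% exact binomial intervals (counting error only). The counts stand beside the names and the dashed line marks the 9.99% of all such genes. Ribosomal protein genes lie highest at 57.1%, and chemosensory, cuticle, developmental transcription factor and cytochrome P450 genes lowest, with intervals that end below the line.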

How the data were processed

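The data were lists of ChIP-seq peaks in narrowPeak layout from 3 replicates, a pooled list and a list thresholded by irreproducible discovery rate, per the deposited texts. The signal of each peak was computed by the authors against 1 control alignment, and its scale is not stated. The sources used here do not give the aligner or the peak caller, and the dm3 lists were not used here.

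Starts came from Ensembl release 115 (BDGP build 6.54) and sequence from RefSeq Release 6. The summit was the peak start plus the deposited offset. For support of members and for the results from the replicates' own lists, each replicate was represented by its 7227 strongest peaks. A replicate's signal and summit at a member are those of the overlapping peak nearest by summit in its whole list (minimum overlap 1 bp). Comparisons used two-sided exact sign-flip permutation tests over the 3 replicates, and shares have exact Clopper-Pearson 95% intervals. Classes and motif searches were tested on simulated data. Alternatives varied the windows, the number of peaks, the overlap and the replicates.

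The members, motifs and gene lists were chosen with earlier results of these data known. The list patterns were narrowed after values had been seen, to drop Cyp1, Cpr and 3 symbols starting with Rab that are not GTPase genes. Genes named by rule were the 15 strongest members, up to 3 of each list, the strongest outside 2R with each of 6 motifs and the 5 strongest with CACGTG, and the 3 most and least even members; the least even ones of that rule shared a replicate peak and were replaced by the next without one. Names at the limits of the rule, among downstream members, with a placed TATA box or with several peaks, and all members of lists of 5 or fewer, were chosen after their values were seen. Computation used Python 3.11.15, numpy 2.4.6, pandas 2.3.3, scipy 1.17.1 and matplotlib 3.10.9.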

Additional observations from a re-analysis of the deposited data

How the results depend on the processing

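The number of members went from 957 to 412 with summits within 100 bp, 1440 within 500 bp and 470 in the stronger 50% of the list. The log2 signal ratio reversed to 0.041 in the stronger 50% of the peaks, and the count of motifs with 1 sign in all replicates went from 7 to 11 with summits within 500 bp; the cause was not tested. Leaving out a replicate gave 30.6 to 35.3 points for the upstream excess, -0.22 to -0.20 for the log2 signal ratio, -22.5 to -18.7 points for the starts with a summit and 8 to 10 motifs, where fewer replicates have to share a sign. In these families the other alternatives kept their direction. Single motif differences reversed 11 times, for motifs whose main differences ran from -2.11 to 1.44 points, the first for CAGCTG, 1 of the 7 motifs with 1 sign. CACGTG went to 0.157 points with summits within 100 bp, 0.131 in the stronger 50% and 0.147 with motifs within 50 bp, and the M1BP site to 1.68 and 0.123 in the first and second of these. CAGCTG went to 0.00594 with summits within 100 bp, CAGGTAG to -0.0123 in the stronger 50%, and GTGCAC ran from -0.0542 to 1.02 when a replicate was left out. AAAAAA went to -0.000857 with an opposite-strand window of 500 bp, -0.171 in the stronger 50% and -2.93 with all peaks. The sign-flip tests already compare both classes within each replicate, and with 1 group no replicate block applies. The unknown depth leaves the detection limit of weak promoters unknown, and the sign-flip test over 3 replicates cannot give a p under 0.25.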
